A study of Mus musculus with 2 samples.

Results

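Solute carrier (Slc) genes were measured in peritoneal macrophages that thioglycolate had elicited in C57BL/6J mice. The arrays were 1 of cells given LPS+CPN and 1 of cells given LPS+CPN+GGOH. Members were the probe sets annotated to exactly 1 gene symbol that begins with Slc and a digit, with a signal above 59.9 on at least 1 array. This value, the floor, is the pooled median of all non-control signals. Slc40a1, Slc11a1, Slc11a2, Slc7a11, Slc2a1 and Slc16a3 were left out by definition. Of 643 such probe sets of 341 genes, 338 probe sets of 205 genes passed, out of 45037 non-control probe sets in all. The probe sets were thus chosen by their signals on these same arrays, so the levels, and the direction of any gene that passed on 1 array only, are descriptions.

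Both cultures carried LPS, a bacterial lipopolysaccharide, and CPN, a compound that the labels give by this abbreviation alone. GGOH is geranylgeraniol, an isoprenoid alcohol of the mevalonate pathway, and was the sole difference in the labels. The cells were collected 3 days after injection of thioglycolate, which recruits macrophages to the peritoneum by irritation. The labels state no animal age, dose, treatment time or number of animals pooled, and no array of untreated or LPS-only cells was analysed here. With 1 array per condition no gene has a replicate, a test or an error of its own, and every difference describes these 2 arrays.

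Solute carriers are membrane proteins that move amino acids, sugars, nucleosides, ions, metals and vitamins across the plasma membrane and the membranes of organelles, mostly as exchangers, cotransporters or facilitated carriers. They are numbered by family, and a family number groups proteins of related sequence that often share a substrate class. In macrophages they feed arginine, glutamine and glucose into activation, move peptides and nucleosides out of lysosomes after phagocytosis, and shift zinc and other metals toward or away from ingested microbes. Some work only with a partner, such as the light subunits of the Slc7 family, which reach the membrane with the heavy subunit encoded by Slc3a2.

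All 16 macrophage markers examined (among them Adgre1, Csf1r and Cd68) were above the floor on both arrays, with summed signals of 187033 without GGOH and 168687 with it and a median log2 ratio (with GGOH minus without) of -0.07. Only Itgam among them differed by 2-fold or more (2.07-fold higher). Fibroblast and mesothelial markers differed between the arrays: 15 of 16 measured genes were at least 2-fold higher with GGOH, against 5.73% of all genes. The summed signal of the 17 on the array was 1578 without GGOH and 31529 with it. Of these 17, 4 were above the floor without GGOH and 16 with it. Only 4 were above it on both arrays, and for the other measured ones the selection fixed the direction. None of the T cell, B cell, mast cell or eosinophil markers was above the floor on either array. Of 7 neutrophil markers 3 were above it, among them S100a8 at 4282 and 2216 and Mmp8 at 62.7 and 136, while S100a9 was below it on both arrays. Of 4 endothelial markers only Kdr was above it, at 98.0 and 96.3. The signal of the 3' control probe set over that of the 5' one was 2.44 without and 1.24 with GGOH for Actb, and 1.98 and 0.956 for Gapdh, a measure of RNA integrity and labelling. The part of these differences in the Slc values below was not tested. In bulk RNA, fewer cells of a type and less RNA per cell cannot be told apart.

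Few Slc genes differed between the arrays by 2-fold or more. Of 203 genes with a gene value, 5 were higher with GGOH (2.46%, against 5.73% of all 11575 measured genes) and 5 were lower (2.46%, against 1.65%). Together these were 4.93% of the Slc genes, against 7.38% of all. Those higher were the amino acid transporter gene Slc7a5, the bicarbonate transporter gene Slc4a4, the folate transporter gene Slc19a1, the nucleoside transporter gene Slc29a1 and the zinc transporter gene Slc30a4. Those lower were Slc6a19, Slc30a3, Slc2a4, Slc4a8 and Slc34a1, all at low signals. The median log2 ratio of the Slc genes was 0.02 (quartiles -0.29 and 0.29), and that of all measured genes was -0.01 (quartiles -0.28 and 0.30). When each array was divided by its own median signal (median scaling) the Slc median was -0.14. It was -0.08 when the arrays were quantile normalized, -0.03 with a lowess fit on mean signal, and 0.09 when the macrophage markers were set equal. Median scaling shifted the median of all genes by -0.16, and relative to all genes the Slc median lay between -0.01 and 0.03 under the deposited and these 4 scalings. The split of the calls was 3 higher and 7 lower with median scaling, and likewise 3 and 7 with quantile normalized arrays. Of all genes, 4.78% were then higher and 2.86% lower with median scaling, and 4.53% and 2.67% with quantile normalized arrays, so the lower share grew over all genes too.

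The genes past 2-fold were unevenly spread over signal levels. Of the Slc genes, 176 were above the floor on both arrays, and among these 4 were at least 2-fold higher (2.27%, against 3.3% of all such genes) and 1 was lower (0.568%, against 1.53%). Another 18 genes were above it only with GGOH and 9 only without, and for these a ratio against the floor is a bound whose direction the selection fixes. None of the 64 Slc genes with a mean signal over 1000 passed 2-fold (background 0.811% higher and 1.33% lower), and their log2 ratios ran from -0.82 for Slc36a4 to 0.86 for Slc16a1. Of the 70 genes between 200 and 1000, 3 were higher and none lower (background 4.8% and 1.7%). Of the 69 genes under 200, 2 were higher and 5 lower (background 12.4% and 1.96%).

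**Figure D1:**
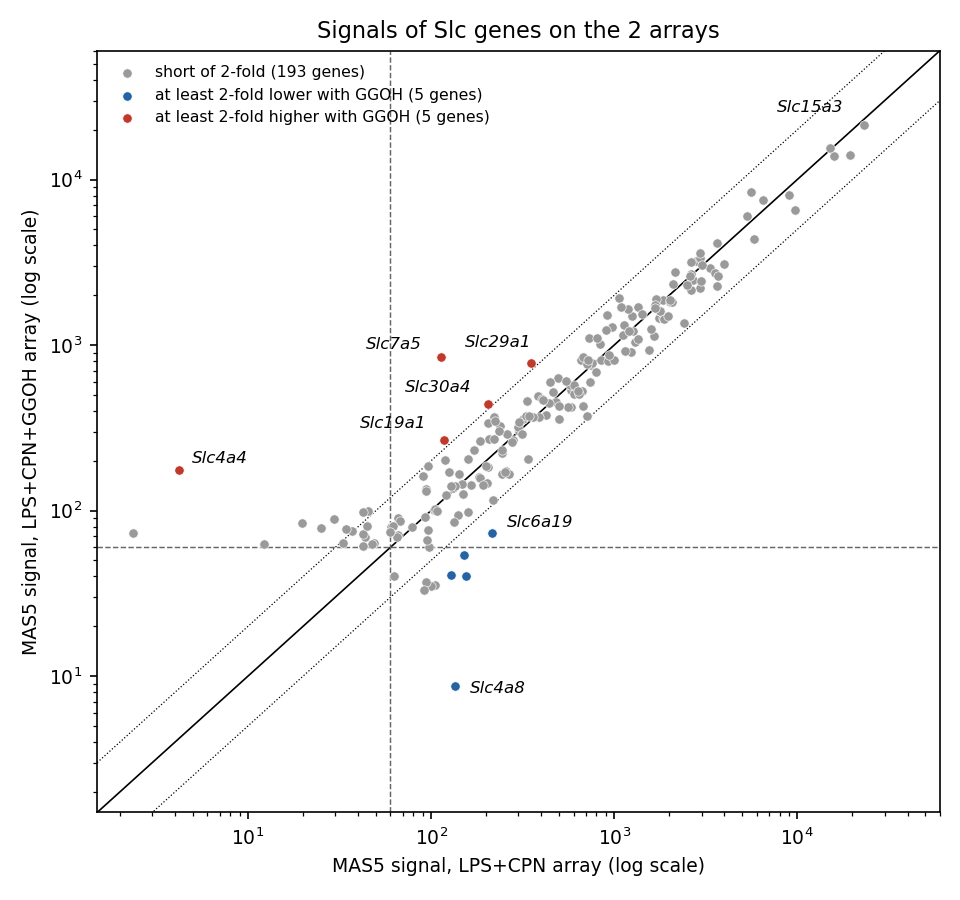
MAS5 signal of each of the 203 Slc genes on the LPS+CPN array (x axis, log scale) and the LPS+CPN+GGOH array (y axis, log scale), 1 point per gene; the solid line marks equal signals, the dotted lines 2-fold differences and the dashed lines the floor of 59.9. Most points lie along the line of equal signals, Slc7a5 lies far above it at 113 and 846, and the lower genes have signals of at most 216. Grey points beyond a dotted line have a signal under the floor on 1 array, and their bound is short of 2-fold.

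Slc7a5 encodes LAT1, the light subunit of a heteromeric exchanger that takes up leucine and other large neutral amino acids. Its signal was 113 without GGOH and 846 with it, which is 7.48-fold higher (log2 ratio 2.90) and the highest ratio among the Slc genes measured on both arrays. This is the value of the only Slc7a5 probe set on the array, so no second probe set of the gene could be compared. The log2 ratio stayed between 2.74 and 2.97 over the 4 other scalings. With the floor at the 75th percentile it was 1.17, a bound.

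Slc29a1 encodes ENT1, an equilibrative transporter that carries adenosine and other nucleosides across the plasma membrane. It gave 352 without GGOH and 775 with it, 2.20-fold higher, from its only probe set. Slc19a1 encodes the reduced folate carrier, and gave 117 without GGOH and 266 with it (2.27-fold higher). A second Slc19a1 probe set gave 41.7, under the floor, and 103. This probe set was above the floor only with GGOH, so the selection fixed its direction. Another Slc19a1 probe set was under the floor on both arrays, at 14.9 without GGOH and 3.06 with it. Slc30a4 encodes a transporter that moves zinc into vesicles, and its only probe set gave 205 without GGOH and 439.6 with it (2.14-fold higher). Median scaling left Slc29a1 (log2 ratio 0.97) and Slc30a4 short of 2-fold, and quantile normalization left Slc19a1 and Slc30a4 short of it. Slc7a5 and Slc4a4 were past 2-fold under both.

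Slc4a4 encodes an electrogenic sodium bicarbonate cotransporter that raises intracellular pH. Its signal was 4.22 without GGOH, below the floor, and 177 with it, at least 2.95-fold higher. A second probe set gave 2.20 and 65.8, and 3 others were below the floor on both arrays. As the median over its 2 measured probe sets the log2 ratio was 0.85. The fibroblast and mesothelial markers were likewise mostly below the floor without GGOH and above it with GGOH, and their part in the Slc4a4 value was not tested.

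In the other direction, Slc6a19 was the only lower gene above the floor on both arrays. It encodes the neutral amino acid transporter B0AT1, known mainly from the brush border of intestine and kidney. Its signals were 216 without GGOH and 72.9 with it (2.96-fold lower), and a second probe set gave 133 and 39.6. The second probe set was above the floor only without GGOH, so the selection fixed its direction. The other 4 genes were above the floor only without GGOH. Slc30a3, a zinc transporter of synaptic vesicles, gave 155 and 40.3 (at least 2.58-fold lower). Slc2a4, the insulin-regulated glucose transporter GLUT4 of muscle and fat, gave 150.5 and 53.9 (at least 2.51-fold lower), and its other probe set was under the floor on both arrays at 41.7 and 4.55. Slc34a1, the phosphate transporter of the renal proximal tubule, gave 128 and 40.9 (at least 2.14-fold lower). Slc4a8, a sodium-driven chloride bicarbonate exchanger, gave 135 and 8.66 (at least 2.26-fold lower), while its 4 other probe sets were below the floor on both arrays. None of the 5 lower genes exceeded a signal of 216 on either array. All 5 therefore lay under a floor set at the 75th percentile of signals, 376, and none was counted with that floor.

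**Figure D2:**
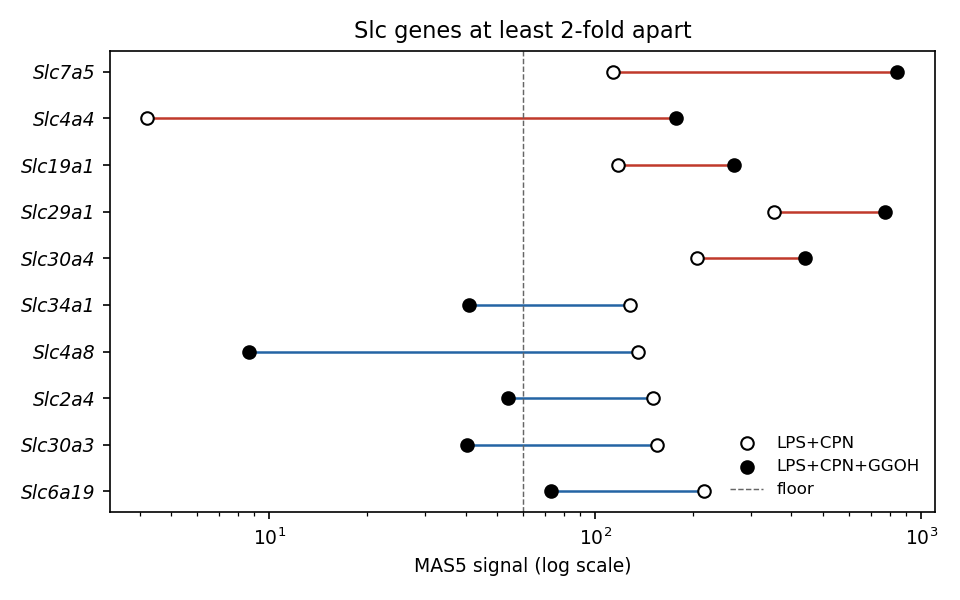
MAS5 signal (x axis, log scale) of the 10 Slc genes at least 2-fold apart, with the LPS+CPN array as open and the LPS+CPN+GGOH array as filled circles and the floor as a dashed line. Of the higher genes all but Slc4a4 lie above the floor on both arrays, whereas of the lower genes only Slc6a19 does.

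Promoter sequences are shown for Slc30a4 and Slc19a1, which were higher with GGOH, and for Slc3a2, whose signal differed little although it encodes the partner subunit of LAT1. They are the 250 bases before an annotated start in RefSeq (GRCm38.p6), read 5′ to 3′, with GC boxes (GGGCGG, bound by factors of the Sp and KLF families) in capitals, on either strand. Slc30a4 is given at chr2:122702664-122702913 on the minus strand, Slc19a1 at chr10:77032489-77032738 on the plus strand and, for its second listed start, chr10:77032962-77033211 on the plus strand, and Slc3a2 at chr19:8713898-8714147 on the minus strand.
Slc30a4: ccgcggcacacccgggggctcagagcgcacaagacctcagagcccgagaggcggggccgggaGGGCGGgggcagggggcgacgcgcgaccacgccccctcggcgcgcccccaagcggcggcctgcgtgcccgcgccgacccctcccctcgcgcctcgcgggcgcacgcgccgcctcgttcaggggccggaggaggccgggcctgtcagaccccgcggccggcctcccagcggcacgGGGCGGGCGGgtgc
Slc19a1: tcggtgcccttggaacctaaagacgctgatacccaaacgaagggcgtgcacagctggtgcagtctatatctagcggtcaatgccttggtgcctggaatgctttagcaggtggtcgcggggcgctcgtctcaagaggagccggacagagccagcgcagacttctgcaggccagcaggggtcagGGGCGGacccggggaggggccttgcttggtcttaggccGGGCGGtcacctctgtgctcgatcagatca
Slc19a1 second start: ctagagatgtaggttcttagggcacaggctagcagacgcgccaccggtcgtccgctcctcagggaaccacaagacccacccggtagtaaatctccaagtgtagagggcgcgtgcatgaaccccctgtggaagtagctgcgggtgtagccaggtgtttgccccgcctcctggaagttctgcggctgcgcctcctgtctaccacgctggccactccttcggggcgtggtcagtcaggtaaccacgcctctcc
Slc3a2: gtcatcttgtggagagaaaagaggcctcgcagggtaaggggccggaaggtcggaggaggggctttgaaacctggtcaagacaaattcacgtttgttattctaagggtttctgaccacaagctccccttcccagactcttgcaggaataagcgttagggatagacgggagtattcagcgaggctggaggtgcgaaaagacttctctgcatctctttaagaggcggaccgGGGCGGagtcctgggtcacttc
The Slc30a4 window held 3 GC boxes on either strand, overlapping ones included, and a GC content of 82.8%. The first Slc19a1 window held 2 GC boxes and the second 0, and the Slc3a2 window held 1. None of the 4 windows held the E-box CACGTG, the cAMP response element TGACGTCA or the amino acid response element written as TGATGNAA, all searched on both strands.

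Promoter entries were found for 155 of the 205 Slc genes, with 210 starts. A GC box was present in 61.4% of these windows and in 32.7% of all 32851 windows of the same length, while the median GC content was 60.8% and 52.4%. CACGTG was present in 13.3% and 6.02%, TGACGTCA in 1.43% and 1.55%, TGATGNAA in 1.90% and 3.45%, and the TATA box TATAAA in 4.29% and 12.4%. Slc29a1 has 8 listed starts and is not shown, though CACGTG was present in at least 1 of its windows. Slc7a5 had no entry. These are matches of letters and describe the windows only.

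Amino acid and peptide transporters were the class that held the widest range. They had 38 of the 70 genes of this class on the array above the floor, with a median log2 ratio of -0.01. Of these, 1 gene, Slc7a5, was at least 2-fold higher and 1, Slc6a19, was lower. For this count and those of the classes below, the shares over all measured genes were 5.73% higher and 1.65% lower. The heavy subunit gene Slc3a2 had a high signal that differed little, 15856 without GGOH and 13914 with it (log2 ratio -0.19). LAT1 and its required partner thus gave log2 ratios of 2.90 and -0.19 on the same arrays. The other light subunits measured also stayed short of 2-fold. Slc7a8 (LAT2) had a log2 ratio of -0.11, and Slc7a6 and Slc7a7, which encode exchangers of cationic for neutral amino acids, had 0.20 and 0.16. The second Slc7a6 probe set was at 0.74. A second Slc7a7 probe set was higher, at 1.11, from signals of 77.9 and 169.

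Genes for the uptake of glutamine and small neutral amino acids lay on both sides of 0. Slc1a5 encodes ASCT2, which exchanges glutamine and other neutral amino acids, and gave 220.1 without GGOH and 367 with it (log2 ratio 0.74). Its second probe set passed the floor by little and only with GGOH. Slc38a2, an amino acid transporter known to respond to amino acid starvation, had a log2 ratio of 0.28 with probe sets from -0.30 to 0.28, while Slc38a1 had 0.02 and Slc38a6 had -0.28. Slc38a9, the lysosomal arginine sensor of the mTORC1 pathway, had 0.32, but its 4 probe sets ran from -0.82 to 0.40. Slc43a3 gave 908 without GGOH and 1523 with it (log2 ratio 0.75); it is placed here by its family number, although it is known as a purine nucleobase transporter. Its relatives Slc43a2 (LAT4) and Slc43a1 (LAT3) had -0.29 and -0.02. A second Slc43a2 probe set was -1.24, from 1909 and 809.

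Arginine supplies nitric oxide and polyamine synthesis in macrophages, and its carriers stayed short of 2-fold. Slc7a2 (CAT2), the arginine transporter that inflammatory stimuli are known to induce, gave 3969.8 without GGOH and 3087 with it (log2 ratio -0.36). Its further measured probe sets were at -0.68, -0.44 and -0.09. The last was above the floor only without GGOH, so the selection fixed its direction. Slc7a1 (CAT1) had 0.02, with probe sets from -0.31 to 0.46. The taurine transporter gene Slc6a6 gave 9776 without GGOH and 6507 with it (log2 ratio -0.59), and the creatine transporter gene Slc6a8 gave 5581 without GGOH and 8357 with it (0.58). These family members of high signal thus lay on opposite sides of 0, each with the same sign in both measured probe sets. The noradrenaline transporter gene Slc6a2, of the same family, gave 217 and 115 (log2 ratio -0.91), and passed 2-fold lower under 3 of the 4 other scalings. Of the proton-coupled carriers, Slc36a4 had the lowest ratio among Slc genes with a mean signal over 1000, from 2412 to 1368 (log2 ratio -0.82), and the lysosomal carrier gene Slc36a1 had 0.12.

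The lysosomal peptide and histidine transporters had similar signals on the 2 arrays. Slc15a3 had the highest signals among the Slc carriers, 23162 without GGOH and 21486 with it (log2 ratio -0.11). Slc15a4, known for its role in endosomal Toll-like receptor signalling, gave 1748 without GGOH and 1455 with it (-0.26). Slc15a2, a peptide transporter of the cell surface, had a log2 ratio of -0.57 at signals of 258 and 173. Slc15a3 took a log2 ratio of 0.07 with quantile normalized arrays and 0.05 with the lowess fit, so its sign depends on the scaling. Signals of different probe sets depend on probe affinity and do not rank amounts of RNA.

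**Figure D3:**
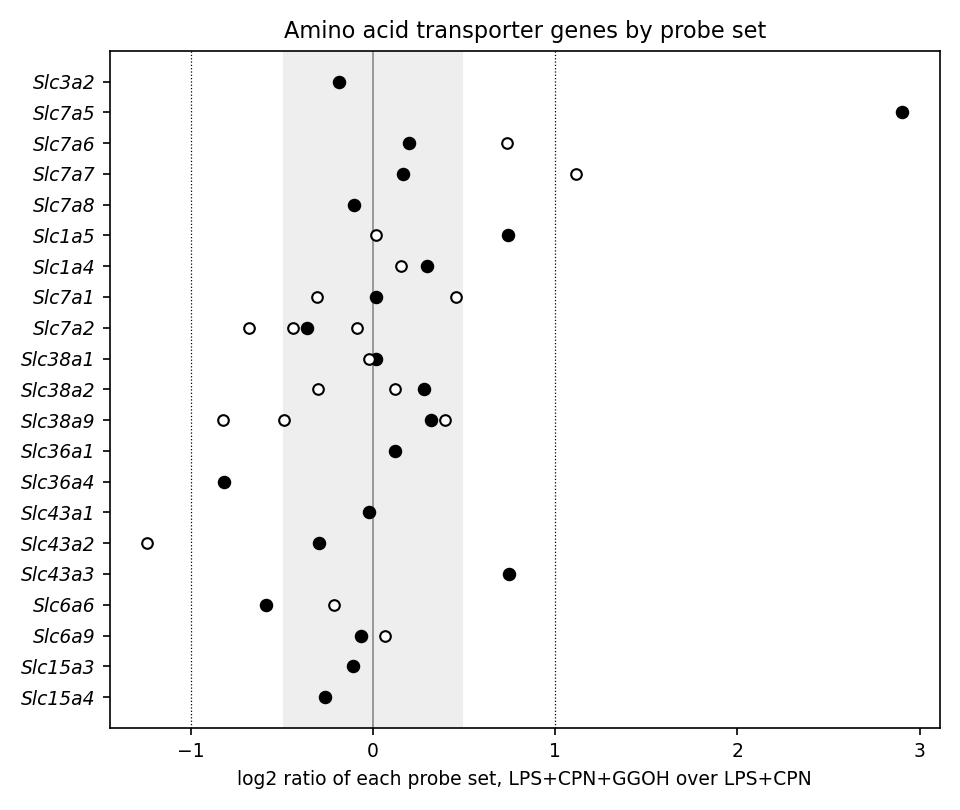
Log2 ratio (x axis) of each probe set above the floor for 21 of the 38 measured genes of the amino acid class (y axis). Filled circles mark the probe set used as the gene value and open circles further probe sets. The grey band marks the pooled SD between probe sets of a gene (0.49 either side of 0) and dotted lines 2-fold. The 21 were a set list, without Slc6a19 (log2 ratio -1.57), the only gene of the class at least 2-fold lower. Slc7a5 stands at 2.90 while Slc3a2, the gene of its partner subunit, lies at -0.19.

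Mitochondrial carriers, the Slc25 family, move metabolites between the cytosol and the mitochondrial matrix. They had 38 of the 44 genes of this class on the array above the floor, none of which passed 2-fold in either direction. Over all measured genes 7.38% passed it. Among genes with mean signals over 1000, only 0.811% were higher and 1.33% lower. Log2 ratios of the mitochondrial carriers ran from -0.73 to 0.49, and 26 of 38 were above 0. Their range was the narrowest among the classes with over 10 genes except the organic ion class. The median was 0.09, -0.06 with median scaling and -0.00271 with quantile normalized arrays, both of which also lowered the median of all genes. Relative to the median of all genes it was 0.11, and between 0.07 and 0.16 over the 9 alternatives. The carriers that serve ATP synthesis had high, similar signals. The phosphate carrier gene Slc25a3 gave 15109 without GGOH and 15575 with it, the ADP/ATP carrier gene Slc25a5 6484 without GGOH and 7527 with it, and Slc25a4, another ADP/ATP carrier, 5346 without GGOH and 6021 with it. A second Slc25a3 probe set gave 14.1, under the floor, and 144. Slc25a51, which carries NAD, had a log2 ratio of 0.18.

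At the lower end stood Slc25a10, the dicarboxylate carrier, with 1556 without GGOH and 939 with it (log2 ratio -0.73), although its second probe set was at 0.07. Slc25a37, mitoferrin-1, which brings iron into mitochondria, gave 3638 without GGOH and 2259 with it (-0.69), while Slc25a28, mitoferrin-2, had 0.27. The glutamate carrier gene Slc25a22 had -0.65, and the aspartate-glutamate carriers of the malate-aspartate shuttle, Slc25a13 and Slc25a12, had -0.55 and -0.44, but a second Slc25a12 probe set, at lower signals, was at 0.65. The oxoglutarate carrier of the same shuttle, Slc25a11, had 0.21. Slc25a1, the citrate carrier, which supplies cytosolic acetyl-CoA for lipid synthesis and citrate for other uses, had 0.03, and the carnitine-acylcarnitine carrier gene Slc25a20 had 0.17. At the upper end among genes above the floor on both arrays were Slc25a14 (0.49), Slc25a39 (0.48), Slc25a40 (0.39) and Slc25a33 (0.35). Slc25a39 is a carrier needed for mitochondrial glutathione import, and Slc25a33 a pyrimidine nucleotide carrier. Slc25a39 also has probe sets of the _x_at kind, whose probes may match other transcripts and which were left out of gene values. The one with the highest signals, 14272 and 11685, was at -0.29, and the others were at 0.09 and 0.36.

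Sugar and polyol carriers had 18 of the 33 genes of this class on the array above the floor, a median of 0.06, and no member at least 2-fold higher. Slc2a4 was the 1 lower gene. The iodide transporter gene Slc5a5 and the vitamin transporter gene Slc5a6 are counted here by their family number, although neither carries sugars. The glucose transporter gene Slc2a3 (GLUT3) gave 184 without GGOH and 263 with it (log2 ratio 0.52). Its probe set of the _x_at kind, left out of gene values, went the other way, at 116 and 92.6 (-0.32). Slc2a6, a lysosomal family member known to be induced in inflammatory macrophages, gave 1676 without GGOH and 1742 with it (0.06). Slc5a3, the myo-inositol cotransporter known to respond to osmotic stress, had a log2 ratio of 0.63. In the sugar-phosphate exchanger family, Slc37a2, known from macrophages, gave 1083 without GGOH and 1703 with it (0.65), whereas Slc37a4, the glucose-6-phosphate transporter of the endoplasmic reticulum, had -0.36 and Slc37a1 -0.65. The family thus held genes on both sides of 0.

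Carboxylate carriers had 10 of the 17 genes of this class on the array above the floor, none past 2-fold, with a median of -0.09 that became 0.04 with the median over probe sets. Slc16a1, which encodes MCT1, a proton-linked carrier of lactate, pyruvate and ketone bodies, had the highest ratio in the class and among Slc genes with a mean signal over 1000. It gave 1068 without GGOH and 1932 with it (1.81-fold higher, log2 ratio 0.86). The log2 ratio stayed between 0.69 and 0.93 over all 9 alternatives, short of 2-fold in each. Slc16a7 (MCT2) had -0.45, Slc16a6 had -0.13 and Slc16a10, an aromatic amino acid carrier of the same family, had -0.05. The 3 other measured Slc16a10 probe sets were at 0.19, 0.41 and 0.93. The citrate transporter gene Slc13a5 gave 139.8 and 93.9 (-0.57). Basigin (Bsg) and embigin (Emb), the chaperones that bring MCT carriers to the membrane, had log2 ratios of 0.26 and 0.03.

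Nucleoside and urea carriers were a small class, with 3 of 7 genes above the floor and 1 at least 2-fold higher. Besides Slc29a1, the lysosomal nucleoside transporter gene Slc29a3 gave 2956 without GGOH and 3355 with it (log2 ratio 0.18, second probe set -0.05), and the urea transporter gene Slc14a2 gave 97.6 and 60.3, just above the floor. The 2 equilibrative nucleoside transporters measured thus differed in size, 2.20-fold for the plasma membrane carrier and 1.13-fold for the lysosomal one.

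Metal transporters had 25 of the 29 genes of this class on the array above the floor and a median of -0.02, with Slc30a4 at least 2-fold higher and Slc30a3 lower. ZIP proteins (Slc39) raise cytosolic zinc and ZnT proteins (Slc30) lower it. None of the 13 measured ZIP genes passed 2-fold, with log2 ratios from -0.73 for Slc39a13 to 0.45 for Slc39a10. Slc39a14 (ZIP14), a zinc and iron importer known to respond to inflammation, gave 445 without GGOH and 599 with it (log2 ratio 0.43), and its second probe set had the same sign. Slc39a10 gave 807 without GGOH and 1103 with it, with both probe sets higher (0.45 to 0.93). Slc39a1 gave 3563 without GGOH and 2742 with it (-0.38), and Slc39a7, which releases zinc from the endoplasmic reticulum and Golgi, gave 2959.8 without GGOH and 3621 with it (0.29). Slc39a8 (ZIP8) was close to the floor at 60.8 and 79.7.

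Among ZnT genes other than Slc30a4 and Slc30a3, the plasma membrane exporter gene Slc30a1 had a log2 ratio of -0.15, with its second probe set at -0.76. The early secretory pathway transporters Slc30a5, Slc30a6 and Slc30a7 had 0.24, -0.32 and -0.34. The magnesium transporter gene Slc41a2 was close to 2-fold lower, from 707 to 370.3 (log2 ratio -0.93). Median scaling and quantile normalization each took it past 2-fold. Its relatives Slc41a1 and Slc41a3 had 0.17 and -0.10. The copper importer gene Slc31a1 had 0.02, with its second probe set at -0.38. Slc31a2, its relative in endosomes, gave 5809.8 without GGOH and 4393 with it (-0.40), but its second probe set was at 0.17.

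Carriers of inorganic ions had 19 of the 47 genes of this class on the array above the floor, with a median of 0.03; Slc4a4 was higher and Slc4a8 lower. Slc9a8 (NHE8), an endosomal sodium-proton exchanger, gave 96.5 without GGOH and 186 with it (log2 ratio 0.95). Its 4 measured probe sets ran from -0.07 to 1.18, and it passed 2-fold only when the macrophage markers were set equal. Slc8b1, the sodium-calcium exchanger of mitochondria, gave 3708 without GGOH and 2616 with it (-0.50). The anion exchanger genes Slc4a2 and Slc4a3 had -0.26 and -0.52. The cation-chloride cotransporter genes Slc12a4, Slc12a7 and Slc12a9 had 0.03, -0.01 and -0.10, and Slc12a2 (NKCC1) had 0.52, from 94.1 and 135. Some genes carry an Slc name without being carriers: Slc9a3r1 (NHERF1), a scaffold that anchors transporters to the cytoskeleton, gave 19461 without GGOH and 14124 with it (-0.46), with both probe sets lower. Slc9a3r2, Slc4a1ap and Slc7a6os, which also take their names from neighbours or partners, had 0.57, 0.15 and 0.13, of which the first is a bound. These genes are counted in the classes of their family numbers.

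In the phosphate and organic anion class, 5 of the 12 genes of this class on the array were above the floor, with a median of 0.04; Slc34a1 was the 1 lower gene and none was higher. The phosphate transporters Slc20a1 and Slc20a2, which also serve as retrovirus receptors, had 0.04 and 0.45, while their second probe sets were at 0.99 and -0.30. Sialin (Slc17a5), the lysosomal exporter of sialic acid, had -0.29. Slc17a9 (VNUT), which loads ATP into vesicles, gave 118 without GGOH and 203 with it (0.78), but its second probe set was at -0.34.

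Nucleotide sugar carriers bring activated sugars and sulfate donors into the Golgi and endoplasmic reticulum. All 19 measured genes of 26 on the array were above the floor on both arrays, and none passed 2-fold. Their median of -0.14 became 0.02 with the median over probe sets. Ratios ran from -0.68 for Slc35e4 to 0.72 for Slc35e3, both of which are members without a well established substrate. The UDP-GlcNAc carrier gene Slc35a3 had -0.37, the UDP-galactose carrier gene Slc35a2 -0.19 and the CMP-sialic acid carrier gene Slc35a1 0.23. The 3 further probe sets of Slc35a3 were at -0.01, 0.37 and 0.84 and those of Slc35a2 at 0.20, 0.22 and 0.24, so neither gene had a sign shared by its probe sets. The sulfate donor (PAPS) carriers Slc35b2 and Slc35b3 had -0.29 and -0.31, and the GDP-fucose carrier gene Slc35c1 had 0.45. The ATP/ADP exchanger of the endoplasmic reticulum, Slc35b1, gave 2149 without GGOH and 2748 with it (0.35).

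Vitamin, heme and cofactor carriers had 8 of the 13 genes of this class on the array above the floor and a median of -0.19, with 6 of 8 below 0. Against Slc19a1, the thiamine transporter gene Slc19a2 had a log2 ratio of -0.05 (second probe set 0.17), and the proton-coupled folate transporter gene Slc46a1 gave 159 without GGOH and 204 with it (0.37), with its second probe set at -0.15. The ascorbate transporter gene Slc23a2 gave 1652 without GGOH and 1132 with it (-0.54), but its second probe set was at 0.83. Slc48a1, which brings heme from the phagolysosome into the cytosol of macrophages, gave 9043 without GGOH and 8029 with it (-0.17). The riboflavin transporter gene Slc52a3 gave 158 and 98.5 (-0.69).

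Of carriers for lipids, bile acids, choline and acetyl-CoA, 9 of the 17 genes of this class on the array were above the floor, none past 2-fold, with a median of -0.06. Slc10a6, a carrier of sulfated steroids, had the highest ratio, from 90.7 to 162 (0.83). The fatty acid transport protein genes Slc27a1 and Slc27a4 had 0.59 and -0.39, and a second Slc27a1 probe set was at -0.03. The choline transporter genes Slc44a2 and Slc44a1 had 0.40 and -0.11, and Slc33a1, the acetyl-CoA carrier of the endoplasmic reticulum, had -0.48. A second Slc44a2 probe set was at 0.46, while one of the _x_at kind, with signals of 5600 and 5695, was at 0.02. In the organic ion and amine class, 11 of 26 genes were above the floor and none passed 2-fold, with a median of 0.02. Slc22a4 (OCTN1), which carries ergothioneine, gave 1296 without GGOH and 1038 with it (-0.32), and Slc22a5, the carnitine transporter, gave 478 without GGOH and 453 with it (-0.08). Slc22a15 and Slc22a18 marked the ends of the class among genes above the floor on both arrays, with 0.45 and -0.33. The genes of this class other than Slc22a4 and Slc22a5 had signals of at most 204 on either array.

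Set against the median of all genes, most class medians took both signs over the 9 alternatives. Mitochondrial carriers and the nucleoside and urea class stayed above 0, the latter between 0.02 and 0.67. Vitamin, heme and cofactor carriers stayed below 0, between -0.18 and -0.04, as did nucleotide sugar carriers, between -0.17 and -0.01.

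**Figure D4:**
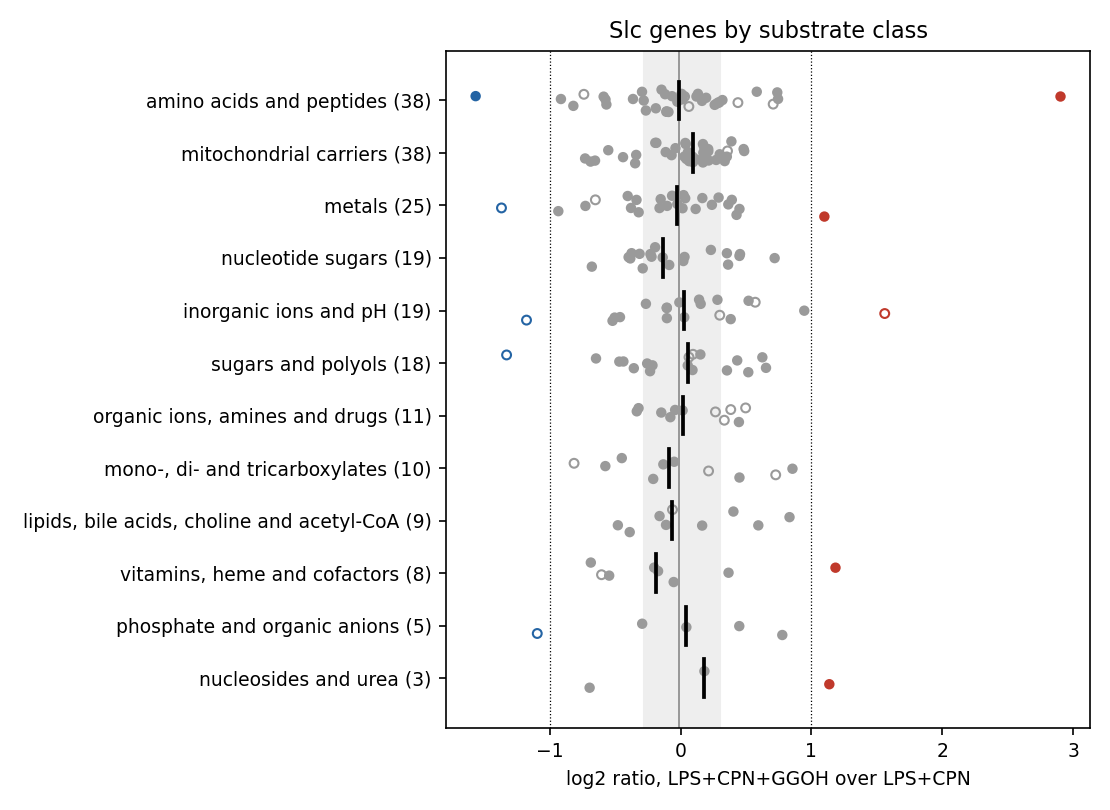
Log2 ratio (x axis) of each Slc gene by substrate class (y axis, number of genes in brackets), with filled circles for genes above the floor on both arrays, open circles for bounds, black bars for class medians, dotted lines at 2-fold, and a grey band and line for the quartiles and median of all measured genes. Class medians lie between -0.19 for vitamin carriers and 0.18 for the 3 nucleoside and urea carriers, all inside the quartiles of all genes.

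Agreement between probe sets shows how far the value of 1 gene depends on the probe set. It comes from the same 2 arrays and holds no variation between cultures, RNA preparations or arrays. The SD of log2 ratios among probe sets of the same gene, pooled over all genes with several measured probe sets, was 0.49, and over the 82 such Slc genes it was 0.39. Of these, 49 had log2 ratios of 1 sign throughout and 33 did not. The count includes probe sets above the floor on 1 array only, whose sign the selection fixed. It was not made over all genes. The other 121 genes rested on 1 measured probe set, including 7 of the 10 at least 2-fold apart. A log2 ratio no larger than 0.49 was found for 153 Slc genes (75.4%), against 73.0% of all measured genes.

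The members closest to the floor were a Slc1a5 probe set at 9.18 and 60.6 and a Slc6a2 probe set at 39.9 and 60.7. Just outside were Slc51a at 59.2 and 23.2 and Slc29a2 at 59.1 and 10.1. Of the 338 member probe sets, 280 were above the floor on both arrays, 34 only with GGOH and 24 only without. Among them, 30 were of the _x_at kind, whose probes may match other transcripts, and these were left out of gene values. Slc29a4 (signals of 267 and 256) and Slc13a3 (signals of 135 and 92.5, and 110.4 and 51.6) were above the floor through such probe sets alone. Another 136 Slc genes had no probe set above the floor, and of 49 families, 5 had no measured gene (Slc24, Slc28, Slc32, Slc47 and Slc51).

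Transport genes named outside the Slc numbering were examined for comparison. Of 25 measured carriers such as Mpc1, Flvcr1, sideroflexins and Slco genes, 1 was at least 2-fold higher and none lower. Over all measured genes the shares were 5.73% and 1.65%. The median of these carriers was 0.04. The higher gene was Slco2a1, the prostaglandin transporter, with 95.9 and 251 (2.62-fold higher). Sfxn3, a mitochondrial serine carrier, gave 1246 and 625, just short of 2-fold lower. Mpc1, a subunit of the mitochondrial pyruvate carrier, had a log2 ratio of 0.21. Among 6 measured partners that carry or power Slc proteins, Atp1b1, a beta subunit of the sodium pump, was below the floor without GGOH at 15.9 and gave 736 with it (at least 12.3-fold higher). The beta subunit gene with high signals on both arrays, Atp1b3, had a log2 ratio of 0.01. Of 20 measured ABC transporters, which pump with ATP, 3 were higher and none lower (all genes 5.73% and 1.65%), with a median of 0.000566. These were Abcb1b (at least 5.99-fold), Abcg2 (3.13-fold, from 96.1 to 301) and Abcb1a (2.28-fold), exporters of drugs and other lipophilic compounds. Fibroblast and mesothelial markers also gave higher signals with GGOH, and their part in these values was not tested.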

How the data were processed

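Per the labels, total RNA of 2 cultures was labelled as biotinylated cRNA and hybridised to 1 array each. The deposited values are signal intensity values on a linear scale, 1 per probe set; the submitters' processing notes name MAS5, and give neither its version nor its scaling target. The mean of the central 96% of deposited intensity values was 500.0 on each array. Detection calls were not used here. Having only 2 arrays limits the precision.

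Gene symbols came from the platform's annotation; the gene identifiers of all 205 Slc genes were found in the RefSeq table of GRCm38.p6, and 0 symbols differed. Signals were floored at 59.9. A gene took the probe set, not of the _x_at class, with the highest mean log2 floored signal, and its log2 ratio is the value with GGOH minus that without; 1 is 2-fold. A gene at the floor on 1 array has a bound, written as at least.

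Substrate classes follow the family number, assigned from general knowledge. Named genes were all those at least 2-fold apart, the 15 of highest signal, the extremes of each class with 5 or more measured genes and a set list; further genes of each class are named for their function and were chosen after their values were seen. The members, lists and rules were chosen with earlier results of these data known. The 9 alternatives were 4 scalings, 2 floors, a pseudocount, the median over probe sets and _x_at probe sets kept. The steps were tested on simulated data. Changes were planted only in genes far above the floor, so the finding of changes in dim genes was not tested. Python 3.11.15, numpy 2.4.6, pandas 2.3.3 and statsmodels 0.14.6 were used.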

Additional observations from a re-analysis of the deposited data

How the results depend on the processing

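Of 446 values of named genes under the 9 alternatives, 11 moved by over 1 SD between probe sets, and none of the genes at least 2-fold apart changed sign. The number of Slc genes at least 2-fold higher, 5 at the deposited settings, was 3 under each of median scaling, quantile normalization, a pseudocount equal to the floor and the median over probe sets, 24 with the floor at the 25th percentile and 2 with it at the 75th. The number lower, also 5, was 3 with a pseudocount, 31 with the low floor and 0 with the high floor. The floor sets how many dim genes are counted: 294 Slc genes were measured with the low floor and 108 with the high one, where 2 of the 10 calls were kept (Slc7a5 and Slc29a1), and over all genes 10.6% and 1.82% were higher and 7.31% and 1.24% lower (Slc genes 8.16% and 1.85% higher, 10.5% and 0% lower). No class or list median moved by over 1 SD between probe sets, 0.49. Class medians at the deposited settings lay only between -0.19 and 0.18, so a median could change sign within this SD. Under median scaling ratios of genes above the floor on both arrays shift down by the same amount. For the same probe set, a pseudocount shrinks ratios of such genes by construction, most for dim ones. It need not shrink the ratio of a gene with a bound. For the other alternatives the cause was not tested. No paired analysis was possible because each condition has 1 array, and none could be left out.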
